A study of Mus musculus with 48 samples.

Results

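Apold1 and 8 early-response genes that are also used by vessels, Klf2, Klf4, Klf6, Ier3, Sgk1, Cdkn1a, Dusp1 and Btg2, were followed through 3 brain regions of mice with and without a deletion of the 7qF3 interval. They are 9 of the 47069 genes in the deposited count table, each with a single Ensembl identifier there, and all 9 were tested in every comparison. Apold1 was chosen by its counts, which were higher in deletion than in wild-type cerebellum, and the other 8 because they are early-response genes of vessels and stress. The cerebellar difference between genotypes is therefore a description below, with no p-value, while cortex and striatum of the same animals were tested.

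Apold1 (apolipoprotein L domain containing 1) encodes a membrane protein of endothelial cells, the cells that line blood vessels, and its transcript is switched on quickly by stress stimuli such as hypoxia. Early-response genes are transcribed within minutes of a signal without new protein synthesis, and their messages decay fast. Klf2, Klf4 and Klf6 encode Kruppel-like transcription factors, of which KLF2 and KLF4 are known for the response of endothelium to flowing blood. Dusp1 encodes a phosphatase that switches off MAP kinases, Sgk1 a kinase induced by glucocorticoids and serum, and Ier3 a short-lived regulator of cell survival. Cdkn1a (p21) encodes an inhibitor of the cell cycle, and Btg2 an antiproliferative protein; p53 is a known inducer of both.

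The deletion animals carried a loss of 7qF3, the mouse stretch syntenic to human 16p11.2, and the other animals were wild type, all of the mixed strain C57BL/6N:129Sv. Each genotype had 4 males and 4 females, and cortex, striatum and cerebellum of each of the 16 animals gave 48 libraries. The groups were therefore 8 deletion and 8 wild-type libraries per region, each a whole-tissue sample. The males and the females carried different dates in the labels, so a sex difference and a date difference cannot be told apart. The number of deleted copies and the age of the animals were not given in the sources used here.

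Counts over genes came to between 29244745 and 60751792 per library, with a median of 32232112. The 22 genes listed for the interval checked the labels: measured against the wild-type average in the same region, their mean log2 level lay between -1.37 and -0.72 in every deletion library, against -0.42 to 0.41 in wild-type libraries. One deletion cerebellum, of animal D809, stood apart, with 1291 CPM summed over 12 cerebellar markers, against 5140 to 6755 CPM in the other deletion cerebella and 3450 to 8543 CPM in wild-type cerebella. The libraries labelled striatum and cortex were both mixed in their region markers: 12 striatal markers summed to 678 to 9320 CPM in deletion and 463 to 5451 CPM in wild-type striatum, and to 957 to 4712 CPM in deletion and 397 to 3229 CPM in wild-type cortex. Not 1 of these 12 markers differed between wild-type striatum and wild-type cortex by edgeR's adjusted p. In 1 deletion striatum, of animal D810, thalamic markers exceeded striatal ones (mean log2 CPM 5.87 and 4.95). CPM is the usual depth-scaled count, here with TMM scaling over all 48 libraries.

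The promoters are shown first, because the genes differ in the classical signals of rapid induction that sit before their starts. RefSeq (GRCm38.p6) gave windows from 250 bases before each start to 50 after it, for all 9 genes. TGACGTCA, the site of cAMP-responsive factors, was in the windows of Dusp1 and Btg2 and in 1.79% of all 32851 windows. In the lines below its letters are in capitals, as are the MEF2 site of Klf2 and the TATA box of Apold1.
Dusp1, chr17:26508520-26508699, minus strand: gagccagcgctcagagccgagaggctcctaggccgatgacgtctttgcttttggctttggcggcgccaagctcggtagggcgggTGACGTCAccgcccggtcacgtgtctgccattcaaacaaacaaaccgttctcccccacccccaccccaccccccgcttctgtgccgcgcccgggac
Btg2, chr1:134079156-134079335, minus strand: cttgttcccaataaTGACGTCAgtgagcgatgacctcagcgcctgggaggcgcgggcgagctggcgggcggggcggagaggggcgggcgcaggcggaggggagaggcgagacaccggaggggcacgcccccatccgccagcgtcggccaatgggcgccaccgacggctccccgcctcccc
Klf2, chr8:72318853-72319032, plus strand: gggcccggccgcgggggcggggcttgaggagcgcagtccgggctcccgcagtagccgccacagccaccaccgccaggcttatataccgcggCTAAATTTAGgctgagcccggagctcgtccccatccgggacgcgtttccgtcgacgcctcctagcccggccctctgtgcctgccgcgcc
Apold1, chr6:134981951-134981980, plus strand: tcattggctcctgggagcTATAAAgtatgc
The TGACGTCA began 143 bases before the RefSeq start of Dusp1 and 166 bases before that of Btg2. The MEF2 site, which MEF2 factors use in the flow response of KLF2, was in Klf2 alone among the 9 genes and in 3.19% of all windows. The TATA box TATAAA began 32 bases before the start of Apold1, was also in 2 of the 6 windows of Sgk1, and was in 13.6% of all windows. The GC box GGGCGG was in windows of 8 of the 9 genes, Apold1 being the exception, and in 35.7% of all windows. All motifs were searched on both strands. A gene was counted if any of its windows held the motif, and Sgk1 had 6 windows and Cdkn1a 2. Counts of genes and shares of windows are therefore unlike units. The shorter TGACG, which TGACGTCA contains, was in windows of 6 of the 9 genes, Apold1, Klf2, Klf4, Sgk1, Dusp1 and Btg2, and in 20.8% of all windows. CCAAT was in windows of 5 (37.4% of all) and AGATAA in 2 windows of Sgk1 (11.2%). TGANTCA (7.81% of windows), the CArG box (1.63%) and CCGGAAG (8.86%) were in no window of the 9 genes. A match is a stretch of letters and not a bound site. The stretch printed for Apold1 lies within an exon of the GENCODE annotation, which starts the gene farther upstream than RefSeq does.

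Apold1 lies on chromosome 6 at 134981718 to 134986836 (GRCm38, plus strand; ENSMUSG00000090698) and overlaps no other annotated gene. In cerebellum, the contrast that chose it, the lowest, median and highest deletion libraries had 3.66, 6.28 and 9.31 CPM, against 1.20, 2.10 and 3.16 CPM in wild-type libraries. All 8 deletion cerebella were above all 8 wild-type cerebella, with the lowest deletion value in animal D809. The log2 fold change was 1.54 ± 0.23 (edgeR estimate ± SE), a 2.91-fold higher level, and was 1.65 without animal D809. Of all genes tested in cerebellum, 0.024% had deletion groups wholly above wild type. A gene is called here where edgeR's quasi-likelihood test gives a Benjamini-Hochberg adjusted p under 0.05, as for 0.138% of all genes in cerebellum. Apold1 was 1 of them and the other 8 were not, and nothing is read from this count, which the choice of Apold1 fixes. In whole tissue, a change in the number of cells of a type and a change in RNA per cell cannot be told apart.

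In cortex, Apold1 had 3.63, 8.09 and 10.3 CPM in the lowest, median and highest deletion libraries, against 3.08, 3.9 and 5.63 CPM in wild-type libraries. In all, 6 of the 8 deletion cortices were above every wild-type cortex, and animals D809 and D812 lay within the wild-type range. The log2 fold change was 0.88 ± 0.21, a 1.83-fold higher level, with an unadjusted p of 0.00062 and an adjusted p of 0.36 by edgeR over 16877 genes, so Apold1 was not called. DESeq2 called it (adjusted p = 0.018). So did edgeR without the deletion cortex of animal D809, the lowest of its group (log2 fold change 0.99, adjusted p = 0.042). Over all fits that left out 1 cortex, the log2 fold change was 0.78 to 0.99 and edgeR's adjusted p 0.042 to 0.94. Only the fit without D809 called it. Over all alternatives with all animals or 1 sex, the adjusted p lay between 0.018 and 1.0. These cortices came from the animals whose cerebella chose Apold1, so these p-values are not independent of that choice.

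In striatum, the lowest, median and highest deletion libraries had 4.79, 9.88 and 20.9 CPM, against 2.67, 6.57 and 11.6 CPM in wild-type libraries. The groups overlapped more than in cortex, with 3 of 8 deletion striata above every wild-type striatum. The log2 fold change was 0.74 ± 0.31, with an unadjusted p of 0.031 and an adjusted p of 1.0 by edgeR, and was 0.59 without the library of animal D810. The highest value in the whole set, 20.9 CPM, was the striatum of the deletion male D801. The difference between the striatal and cortical genotype effects of Apold1 was -0.12 ± 0.36 on the log2 scale (edgeR adjusted p = 1.0). The striatal tests too used the animals whose cerebella chose Apold1.

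**Figure D1:**
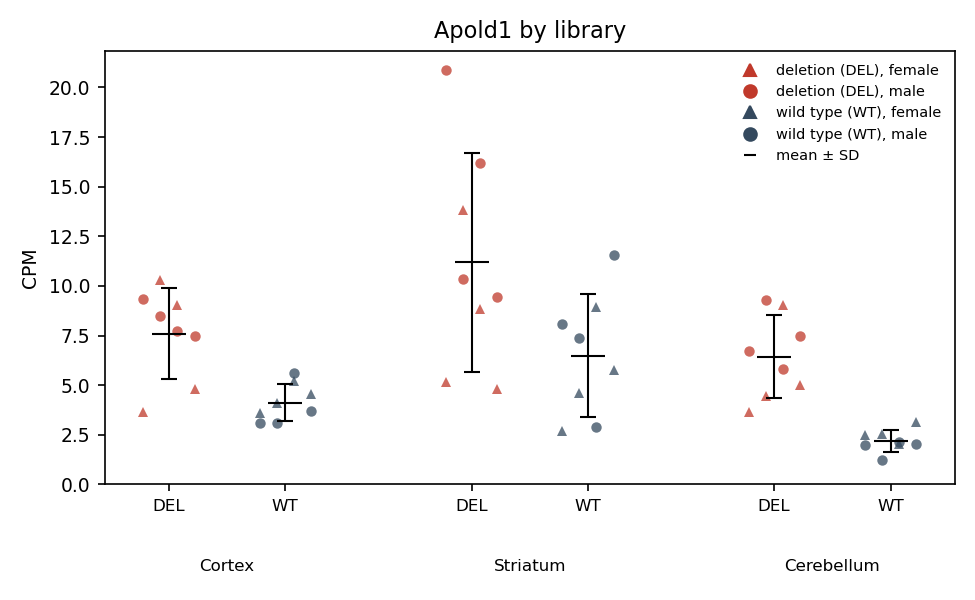
Apold1 level in CPM (y axis) in each library, by region, with deletion (DEL, red) left of wild type (WT, dark blue), triangles for females, circles for males, and horizontal marks with bars for mean ± SD over 8 libraries. Deletion and wild-type points do not overlap in cerebellum (3.66 to 9.31 against 1.20 to 3.16 CPM) and overlap in cortex and striatum.

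None of the 3 transcription factors was called in cortex or striatum, and the estimates were largest for Klf2. Klf2 in cortex had 5.49, 9.67 and 15.7 CPM in the lowest, median and highest deletion libraries, against 4.07, 7.52 and 10.9 CPM in wild-type libraries. In striatum it had 3.80, 7.21 and 15.7 CPM in deletion libraries, against 2.92, 4.03 and 10.2 CPM in wild-type libraries. Both pairs of groups overlapped, and in both regions the 3 deletion libraries above every wild-type library were males. The log2 fold changes of Klf2 were 0.45 ± 0.24 in cortex and 0.57 ± 0.25 in striatum (edgeR adjusted p = 0.97 and 1.0). Klf4, the related factor, had 2.71, 4.55 and 9.67 CPM in the lowest, median and highest deletion striata, against 2.96, 3.64 and 5.16 CPM in wild-type striata. Here too 3 deletion libraries lay above every wild-type one. The estimates for Klf4 were smaller than those for Klf2, with log2 fold changes of 0.22 ± 0.16 in cortex and 0.35 ± 0.17 in striatum (edgeR adjusted p = 0.97 and 1.0). Klf6, a widely expressed member of the family, lay near 0 in cortex (-0.05 ± 0.15) and striatum (0.13 ± 0.18). In cerebellum, as a description, the log2 fold changes were 0.58 ± 0.29 for Klf2, 0.34 ± 0.17 for Klf4 and 0.01 ± 0.17 for Klf6.

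Among the signalling genes, Sgk1 (chromosome 10, 21882184 to 21999903, plus strand) had the highest levels in CPM. In striatum its lowest, median and highest libraries had 37.4, 97.8 and 144 CPM in deletion animals, against 25.2, 56.2 and 106 CPM in wild-type animals. In cortex they had 38.9, 89.3 and 137 CPM in deletion animals, against 35.2, 66.8 and 91.7 CPM in wild-type animals. The groups overlapped in both regions, although 4 of 8 deletion cortices were above every wild-type cortex. The log2 fold changes of Sgk1 were 0.60 ± 0.31 in striatum and 0.47 ± 0.25 in cortex (edgeR adjusted p = 1.0 and 0.97), and 0.43 ± 0.24 in cerebellum.

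Dusp1, the MAP kinase phosphatase, had 17.3, 34.5 and 64.9 CPM in the lowest, median and highest deletion cortices, against 16.6, 33.0 and 43.8 CPM in wild-type cortices. The medians were close, and 3 deletion cortices, of animals D801, D802 and D810, lay above every wild-type one. Its log2 fold changes were 0.31 ± 0.28 in cortex and 0.48 ± 0.25 in striatum (edgeR adjusted p = 0.97 and 1.0), and 0.52 ± 0.26 in cerebellum. The annotated span of Dusp1 (chromosome 17, 26505590 to 26562128, minus strand) overlaps Ergic1 on the opposite strand, which had more counts in all than Dusp1, and whether the counting used strand is not given in the sources used here.

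Of the growth and survival regulators, Cdkn1a and Ier3 had estimates nearer 0 than Btg2 in cortex and striatum. Btg2 had 15.0, 23.9 and 41.3 CPM in the lowest, median and highest deletion cortices, against 13.9, 19.5 and 27.4 CPM in wild-type cortices, and 3 deletion cortices lay above every wild-type one. Its log2 fold changes were 0.39 ± 0.22 in cortex and 0.37 ± 0.16 in striatum (edgeR adjusted p = 0.97 and 1.0), and -0.12 ± 0.15 in cerebellum. Cdkn1a ranged from 17.1 to 42.7 CPM in deletion cortices and from 16.5 to 45.2 CPM in wild-type cortices, nearly the same span, with a log2 fold change of -0.03 ± 0.24. Ier3 averaged 7.97 ± 2.19 CPM in deletion cortex and 7.97 ± 2.23 CPM in wild-type cortex (SD, n = 8 each). In striatum the log2 fold changes were 0.18 ± 0.16 for Cdkn1a and 0.15 ± 0.21 for Ier3.

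Counted over the set, 0 of 9 genes were called in cortex, where 0.13% of all genes were, and 0 of 9 in striatum, where 0.128% were. At an unadjusted p under 0.05 edgeR listed 1 of the 9 in cortex (Apold1) and 3 in striatum (Apold1, Klf2 and Btg2), beside 2.03% and 3.32% of all genes. DESeq2 called 1 of 9 in cortex (0.184% of all genes) and 0 of 9 in striatum (0.245%). The log2 fold change was positive for 6 of 9 genes in cortex, with a median of 0.31 beside 0.00 over all genes tested, of which 50.9% were positive. It was positive for 9 of 9 in striatum, with a median of 0.37 beside -0.01 over all genes, of which 48.2% were positive. The 2 regions came from the same animals, so their signs are not separate observations. In the test of the difference between striatal and cortical effects, 0 of 9 genes and 0% of all genes were called, beside 1.86% of all genes at an unadjusted p under 0.05, of which none was of the 9. With the animal as a block, 0 of 9 were called as well.

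**Figure D2:**
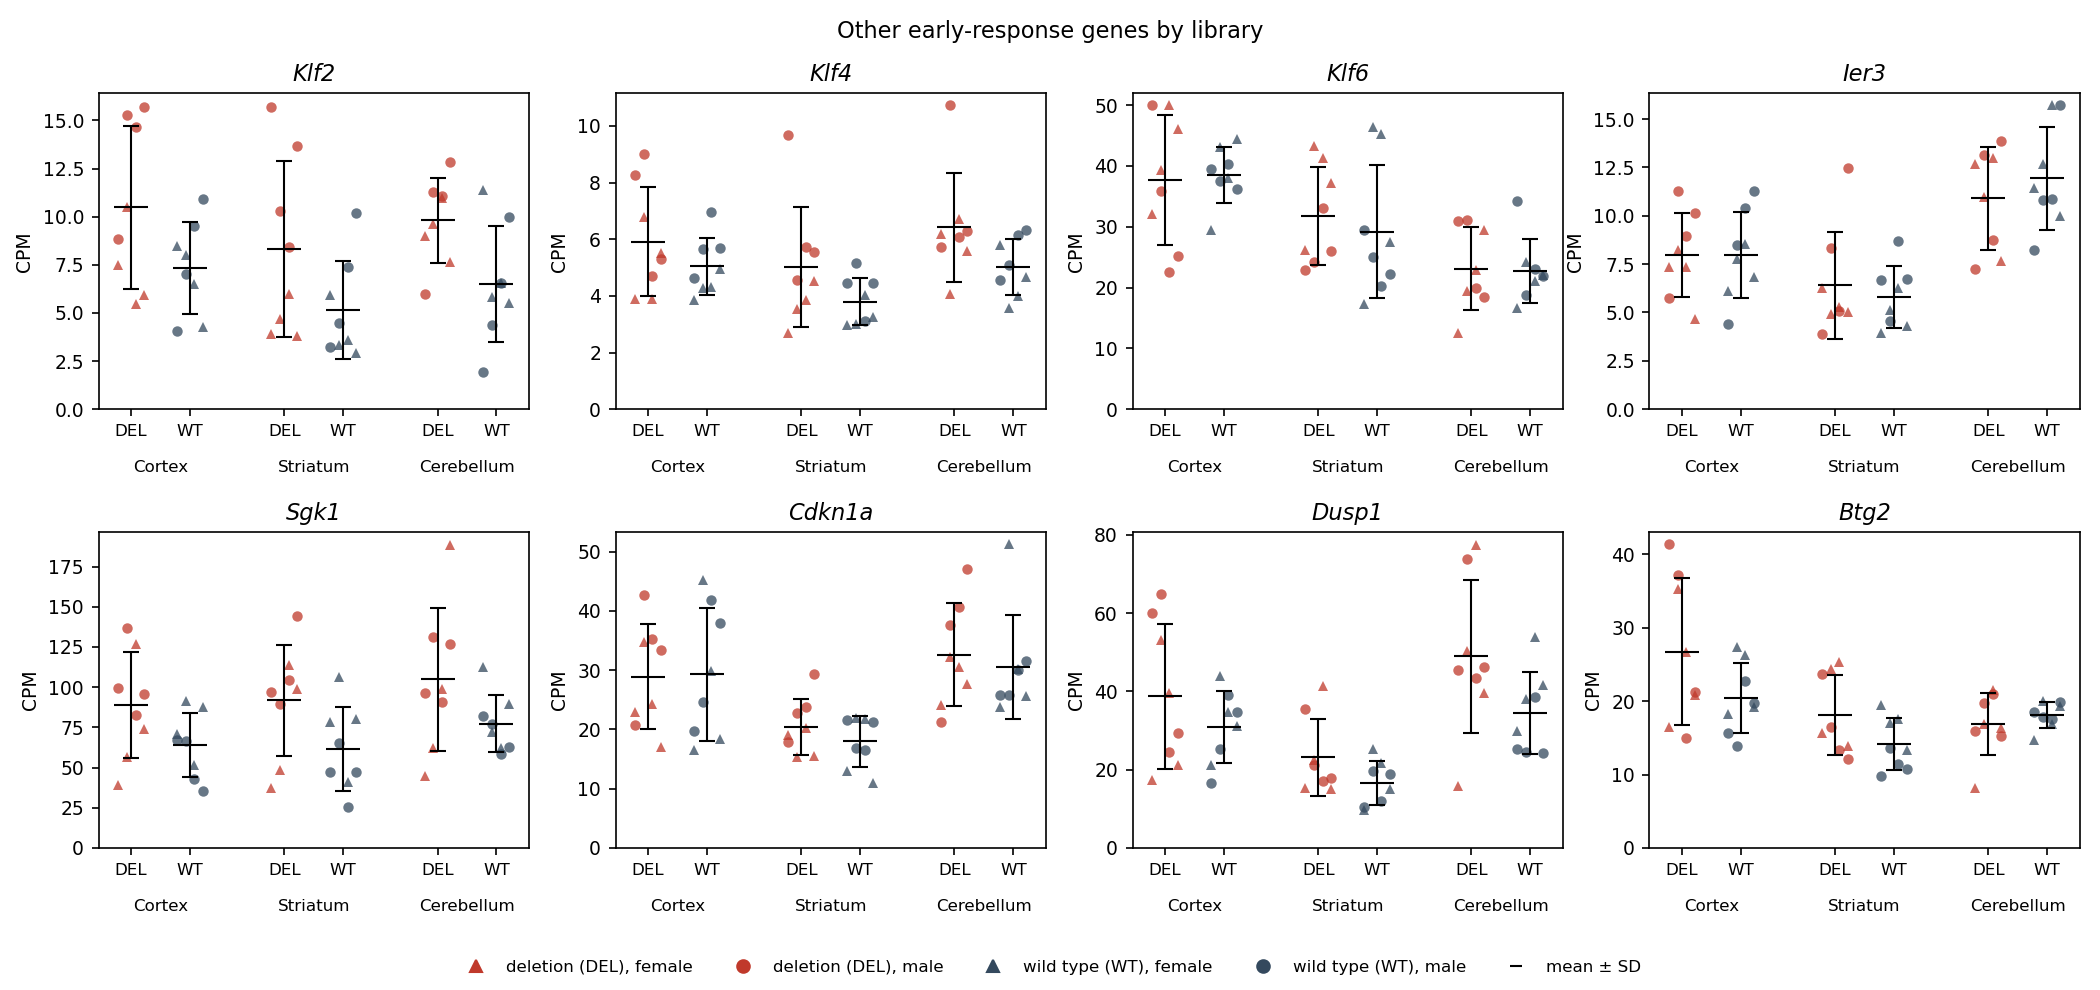
Level in CPM (y axes) of the 8 other genes in each library, by region, with deletion (DEL, red) left of wild type (WT, dark blue), triangles for females, circles for males, and mean ± SD over 8 libraries. Deletion and wild-type libraries overlap for all 8 genes in all 3 regions.

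Wider lists of related genes, chosen with earlier results of these data known, gave few calls. Among 36 early-response genes of many cell types, without the 9, 0 were called in cortex, where 30 were positive with a median log2 fold change of 0.17. In striatum 1 was called and 24 were positive, with a median of 0.10. The called gene was Fos, a subunit of the transcription factor AP-1, which had 19.2, 33.9 and 43.2 CPM in the lowest, median and highest deletion striata, against 10.4, 15.9 and 20.2 CPM in wild-type striata. These groups overlapped only near 20 CPM, and the log2 fold change of Fos was 1.04 ± 0.16 (edgeR adjusted p = 0.012). In cortex the smallest p-values of the list belonged to the stress factor Atf3 (0.69 ± 0.23) and to Maff (0.92 ± 0.34), both uncalled with an edgeR adjusted p of 0.97.

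Of 18 tested endothelial flow-response genes, 0 were called in either region, with medians of 0.11 in cortex and 0.03 in striatum. The 2 of smallest p in cortex were Cav1, a caveolar protein (0.30 ± 0.15), and the adhesion molecule Icam1 (0.60 ± 0.39), both with an edgeR adjusted p of 0.97. In striatum they were F3, which encodes tissue factor (0.35 ± 0.09), and Cav1 (0.42 ± 0.13), with edgeR adjusted p of 0.62 and 1.0. Of 19 tested glucocorticoid-responsive genes and 20 tested p53 targets, 0 were called in either region, and the medians lay between -0.04 and 0.02. The glucocorticoid list had its smallest p-values for Ddit4, an inhibitor of mTOR signalling (0.40 ± 0.12), and Hif3a (-0.50 ± 0.26) in cortex, and for Nfkbia, an inhibitor of NF-kappaB (0.41 ± 0.10), and the transcription factor Zbtb16 (-1.56 ± 0.41) in striatum. The p53 list had them for Psrc1 (-0.42 ± 0.21) and Trp53inp1 (0.49 ± 0.31) in cortex, and for Psrc1 (-1.23 ± 0.57) and Gtse1 (-0.55 ± 0.33) in striatum. None of these was called, with edgeR adjusted p from 0.48 to 1.0. The remaining family lists, covering other Kruppel-like factors, other MAP kinase phosphatases, the BTG and TOB family, relatives of Sgk1 and Cdkn1a, the Ier family and the apolipoprotein L genes, had 0 genes called in cortex and 0 in striatum. Over these family lists and the flow, glucocorticoid and p53 lists, 0 genes were also called in cerebellum, likewise 0 of the 34 tested early-response genes.

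Vessel markers gave the following values beside these results. Of 18 endothelial markers, 0 were called in any region, with median log2 fold changes of -0.01 in cortex, 0.11 in striatum and 0.06 in cerebellum. Their summed level ranged over 536 to 657 CPM in deletion and 592 to 730 CPM in wild-type cortex, and over 475 to 782 CPM in deletion and 442 to 622 CPM in wild-type striatum. In cerebellum it ranged over 557 to 820 CPM in deletion and 544 to 688 CPM in wild-type libraries, and no endothelial marker was at 0 in any group. With the endothelial marker level as a covariate the log2 fold change of Apold1 was 0.87 in cortex, 0.63 in striatum and 1.58 in cerebellum.

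Blood cell markers, among them the haemoglobin genes, were recorded as well. Their median log2 fold change was 0.74 over 6 tested genes in cortex, 1.14 over 6 in striatum and 0.94 over 7 in cerebellum, with 0 called. The summed level of all 7 ranged over 276 to 827 CPM in deletion and 257 to 486 CPM in wild-type cortex, 93.2 to 476 CPM in deletion and 109 to 319 CPM in wild-type striatum, and 83.7 to 714 CPM in deletion and 84.6 to 236 CPM in wild-type cerebellum. In each region the highest value was that of the deletion male D804. Without the libraries of animal D804 the log2 fold change of Apold1 was 0.88 in cortex, 0.80 in striatum and 1.51 in cerebellum.

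Region markers gave these values. All 12 striatal markers had positive log2 fold changes in cortex (median 0.50) and in striatum (median 0.47), and all 12 cerebellar markers had negative ones in cerebellum (median -0.27), with 0 called in each. With these marker levels as covariates the log2 fold change of Apold1 was 0.90 in cortex, 0.61 in striatum (thalamic markers added) and 1.59 in cerebellum. Beyond these values, the part of vessel, blood or region markers in the results was not tested.

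The estimated genotype difference was smaller in females than in males for most of the set, and the test of that difference called no gene. For Sgk1 in striatum, the 4 deletion females had 37.4, 48.8, 98.7 and 114 CPM, against 41.1, 78.2, 80.4 and 106 CPM in the wild-type females. The 4 deletion males had 89.2, 96.9, 104 and 144 CPM, against 25.2, 47.0, 47.3 and 65.2 CPM in the wild-type males. All 4 deletion males were above all 4 wild-type males, while the female groups overlapped. The share of all genes whose male groups lie apart in this way was not counted, so nothing is read from it. In cortex the Sgk1 means were 74.2 CPM in deletion and 75.4 CPM in wild-type females, and 104 CPM in deletion and 53 CPM in wild-type males.

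The female minus male difference in the log2 genotype effect of Sgk1 was -1.02 ± 0.44 in cortex and -1.30 ± 0.52 in striatum, with unadjusted p of 0.036 and 0.024 and an edgeR adjusted p of 1.0 in both. This difference was negative for 8 of 9 genes in cortex (median -0.44, Klf6 being the exception) and for 9 of 9 in striatum (median -0.31), beside medians of 0.00 over all genes in both regions. For Apold1 it was -0.44 ± 0.41 in cortex and -0.36 ± 0.64 in striatum (edgeR adjusted p = 1.0 in both). Of the 36 other early-response genes, 35 had a negative difference in cortex and 32 in striatum. All these genes were measured in the same animals, so their signs are not separate observations, and no test was made of them. In both regions 0 of 9 genes and 0% of all genes were called by edgeR, while 1 of the 9, Sgk1, had an unadjusted p under 0.05 in each region, beside 1.52% of all genes in cortex and 1.1% in striatum. DESeq2 called 0 of the 9 in both, beside 0.00593% of all genes in cortex and 0% in striatum.

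For Apold1 the log2 genotype effect was 0.65 ± 0.33 in females and 1.10 ± 0.23 in males in cortex, and 0.57 ± 0.44 in females and 0.92 ± 0.41 in males in striatum. In cerebellum it was 1.11 ± 0.32 in females and 1.97 ± 0.26 in males, given as a description. The cerebellar male groups had means of 7.33 CPM in deletion and 1.84 CPM in wild-type libraries, and the female groups 5.55 CPM in deletion and 2.56 CPM in wild-type libraries. Each sex thus had its deletion mean above its wild-type mean, which was fixed because all deletion cerebella were above all wild-type cerebella.

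**Figure D3:**
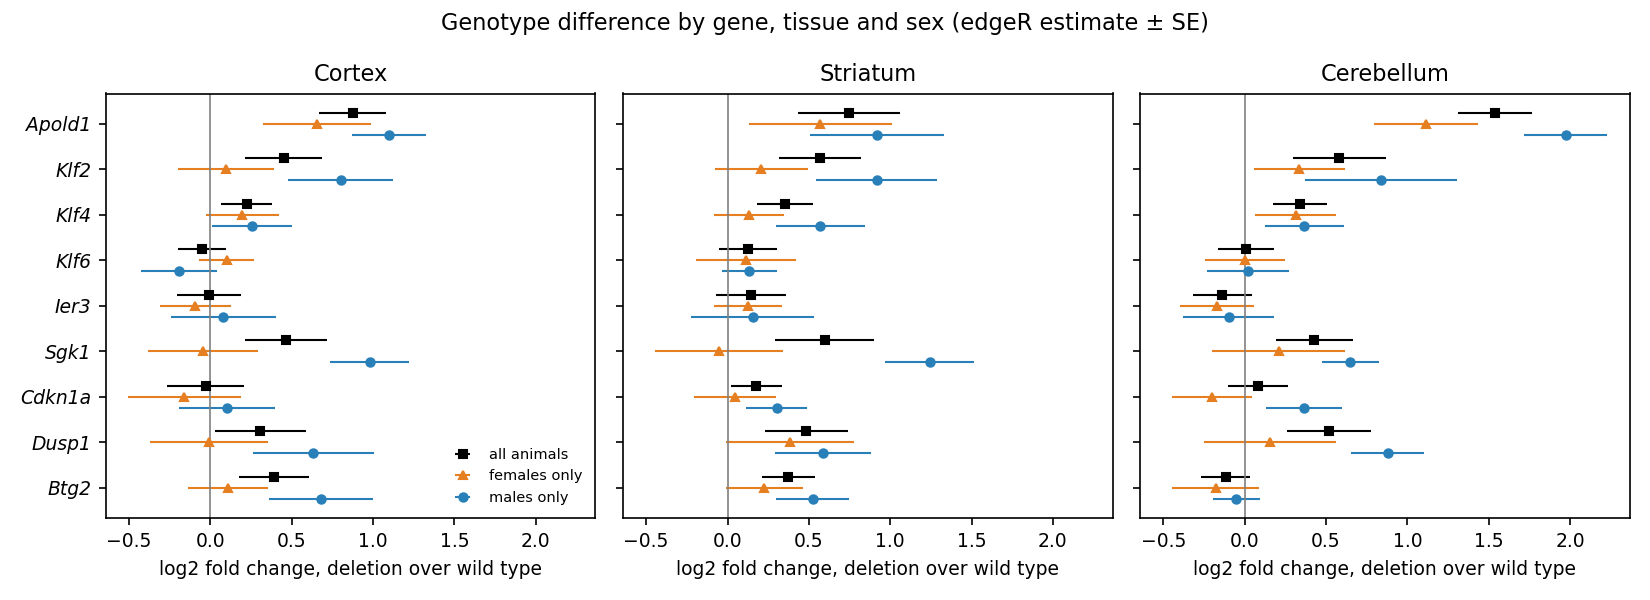
Log2 fold change of deletion over wild type (x axes, edgeR estimate with bars of ± SE) for the 9 genes (rows) in each region, from all animals (squares, n = 8 per genotype), females only (triangles, n = 4) and males only (circles, n = 4). Sgk1 lies near 0 in females and at 0.98 and 1.24 in males in cortex and striatum. Apold1 is to the right of 0 in every panel, and the cerebellum panel is the contrast that chose it.

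Between the sexes, over both genotypes, 0 of the 9 genes were called in cortex (0.0356% of all genes), striatum (0.134%) or cerebellum (0.042%) by edgeR. The smallest adjusted p-values were in striatum, where Klf2 averaged 4.60 CPM in deletion and 3.95 CPM in wild-type females, and 12 CPM in deletion and 6.31 CPM in wild-type males. Its female over male log2 fold change there was -1.06 ± 0.25 (edgeR adjusted p = 0.077) and that of Klf4 was -0.61 ± 0.17 (edgeR adjusted p = 0.086), while that of Apold1 was -0.65 ± 0.31 (adjusted p = 0.16). DESeq2 called both, with adjusted p of 0.0046 and 0.019. In the same comparison 32.9% of all genes had an unadjusted p under 0.05, DESeq2 called 14.8% of all genes, the median log2 fold change of 12 striatal markers was -0.69 and that of 10 cortical markers was 1.25. The part of this difference in dissected tissue in the Klf2 and Klf4 values was not tested.

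Wild-type libraries gave the regional levels, by the region in the labels, and those of striatum and cortex were mixed in their region markers. Apold1 had the lowest level per length in cerebellum, at 0.617 ± 0.158 CPM per kb of exon, then cortex at 1.15 ± 0.26 and striatum at 1.82 ± 0.86 (SD, n = 8 each). It was lower in cerebellum than in striatum (log2 fold change -1.57 ± 0.26, edgeR adjusted p = 3.3e-05) and than in cortex (-0.91 ± 0.26, adjusted p = 0.0057). Striatum over cortex, at 0.66 ± 0.26, was not called (edgeR adjusted p = 0.079). Among the deletion libraries, as a description, the log2 level in cerebellum was -0.74 relative to striatum and -0.24 relative to cortex. The cerebella of both genotypes entered the contrast that chose Apold1, so its cerebellar values here are not independent of that choice.

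The other genes had other orders. Ier3, by contrast with Apold1, was highest in cerebellum, at 10.5 ± 2.4 CPM per kb, against 5.12 ± 1.42 in striatum and 7.05 ± 1.97 in cortex (cerebellum over cortex 0.59 ± 0.19, edgeR adjusted p = 0.014). Dusp1 had 10.4 ± 3.2 CPM per kb in cerebellum, 5.01 ± 1.72 in striatum and 9.32 ± 2.78 in cortex, and cerebellum and cortex were not separated by the test (edgeR adjusted p = 0.63). Klf6 was lower in cerebellum (5.18 ± 1.19) than in cortex (8.78 ± 1.05), a log2 difference of -0.76 ± 0.18 (edgeR adjusted p = 0.00099). Per length, Sgk1 was the highest of the set in all 3 regions, at 15.8 ± 3.6 CPM per kb in cerebellum, 12.5 ± 5.3 in striatum and 13.1 ± 4.1 in cortex. Its regions were not separated by the fit without animals, but with the animal as a block Sgk1 was higher in cerebellum than in striatum (0.42, edgeR adjusted p = 0.018).

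Striatum was below cortex for 4 genes, Btg2 (-0.54 ± 0.13), Cdkn1a (-0.71 ± 0.22), Dusp1 (-0.90 ± 0.21) and Klf4 (-0.41 ± 0.13), beside 8.67% of all genes lower, 9.95% higher and 18.6% in either direction. With the animal as a block 7 of 9 were called, adding Ier3, Klf2 and Klf6, all lower in striatum. With deletion libraries in place of wild type, fewer of the 9 were called. The libraries labelled striatum and cortex were mixed in their region markers, whose part in these calls was not tested. Cerebellum over cortex called 3 of 9 (Apold1 and Klf6 lower, beside 24.7% of all genes, and Ier3 higher, beside 24.2%, or 48.9% in all), and cerebellum over striatum called 6 of 9 (48% of all genes), or 7 with the animal as a block, which added Sgk1. There Btg2, Cdkn1a, Dusp1, Ier3 and Klf4 were higher in cerebellum than in striatum (22.4% of all genes) and Apold1 was lower (25.5%). Both Apold1 calls use the wild-type cerebella of the contrast that chose it, so they are not independent of that choice. The levels of endothelial markers differed between regions as well, with 6 of 18 lower in striatum than in cortex, 2 lower in cerebellum than in cortex and 6 higher in cerebellum than in striatum, and their part in the orders was not tested.

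**Figure D4:**
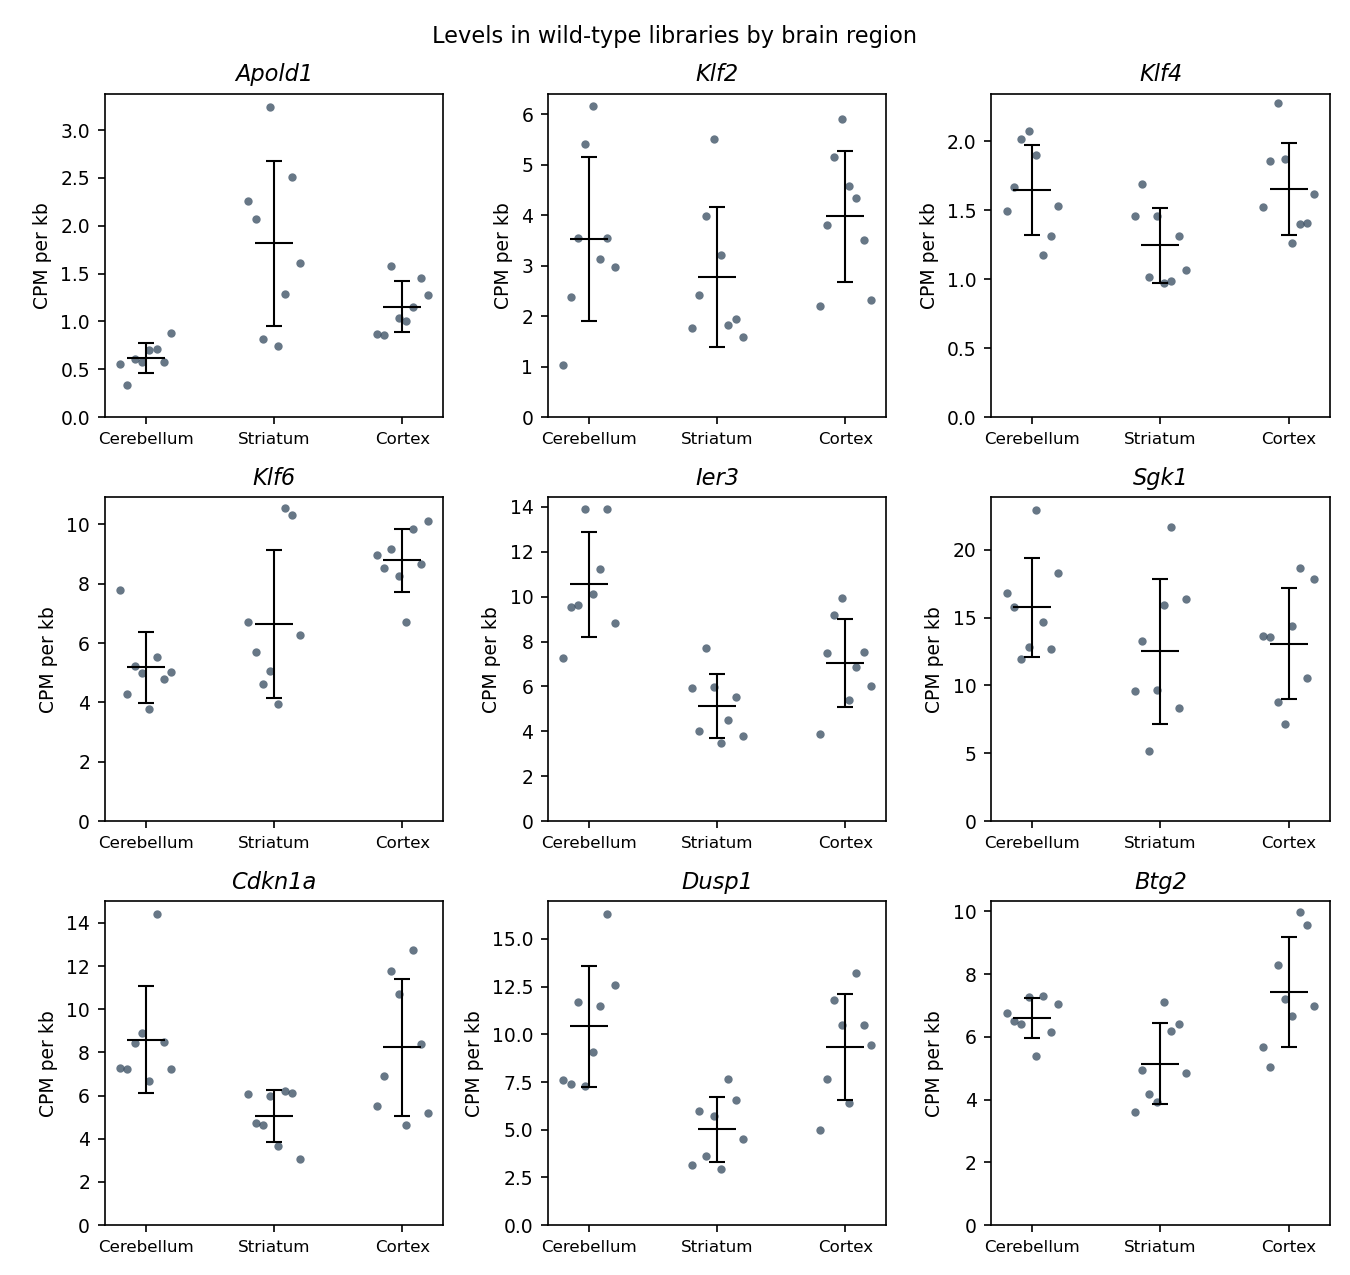
Level in CPM per kb of exon (y axes) of the 9 genes in the 8 wild-type libraries of cerebellum, striatum and cortex (points), with mean ± SD. Apold1 is lowest in cerebellum (0.617 ± 0.158), where Ier3 is highest (10.5 ± 2.4). The wild-type cerebella entered the contrast that chose Apold1.

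For some of these genes an animal that was high in a region tended to be high in another. After subtraction of the genotype mean of each region, the correlation over 16 animals was positive for all 27 combinations of 9 genes and 3 pairs of regions. Of these 27, 10 had a Benjamini-Hochberg adjusted permutation p under 0.05, and 11 had one when the mean of each sex was subtracted as well. Animals were permuted within genotype but across sexes in both cases, so the permutation p-values after subtraction of sex means can be too small. Such correlation was widespread: r was at least 0.6 for 3 of the 9 genes and 32.5% of all genes between cortex and striatum, for 5 of 9 and 37.8% between cortex and cerebellum, and for 2 of 9 and 4.64% between striatum and cerebellum. Over 13951 genes the median r was 0.48 between cortex and striatum, 0.52 between cortex and cerebellum and 0.22 between striatum and cerebellum. The medians over the 9 genes were 0.59, 0.60 and 0.37 for the same pairs of regions.

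Cdkn1a between cortex and cerebellum had r = 0.77 (adjusted permutation p = 0.0070) and rho = 0.79 (adjusted permutation p = 0.015), with r = 0.70 after the 2 animals farthest from the cortical median were left out. With sex means subtracted as well r was 0.79 over all animals, 0.86 within females and 0.71 within males. Sgk1 had r = 0.80 between cortex and striatum, 0.65 between cortex and cerebellum and 0.70 between striatum and cerebellum, and rho = 0.70, 0.64 and 0.64. Their adjusted permutation p-values were 0.0077, 0.034 and 0.022 for r, and 0.031, 0.036 and 0.036 for rho. After the 2 farthest animals were left out r was 0.77, 0.43 and 0.53. With sex means subtracted as well, r of Sgk1 was 0.71, 0.60 and 0.67 (adjusted permutation p = 0.018, 0.066 and 0.018), so the relation between cortex and cerebellum no longer passed. Within females it was then 0.92, 0.57 and 0.74, and within males 0.24, 0.79 and 0.50.

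Apold1 had lower values, with r = 0.37 between cortex and striatum, 0.55 between cortex and cerebellum and 0.00 between striatum and cerebellum (adjusted permutation p = 0.23, 0.083 and 0.99), and rho = 0.31, 0.41 and -0.14 (adjusted permutation p = 0.32, 0.22 and 0.68). Without the 2 farthest animals r was -0.04, 0.29 and -0.02. With sex means subtracted as well r was 0.33, 0.45 and -0.12, and without the 2 farthest animals 0.08, 0.51 and -0.03. The value between cortex and striatum thus rested on 2 animals under both subtractions, and that between cortex and cerebellum was lower without them only where sex means were kept. Within females r was then 0.83, 0.45 and 0.07, and within males -0.53, 0.47 and -0.37.

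**Figure D5:**
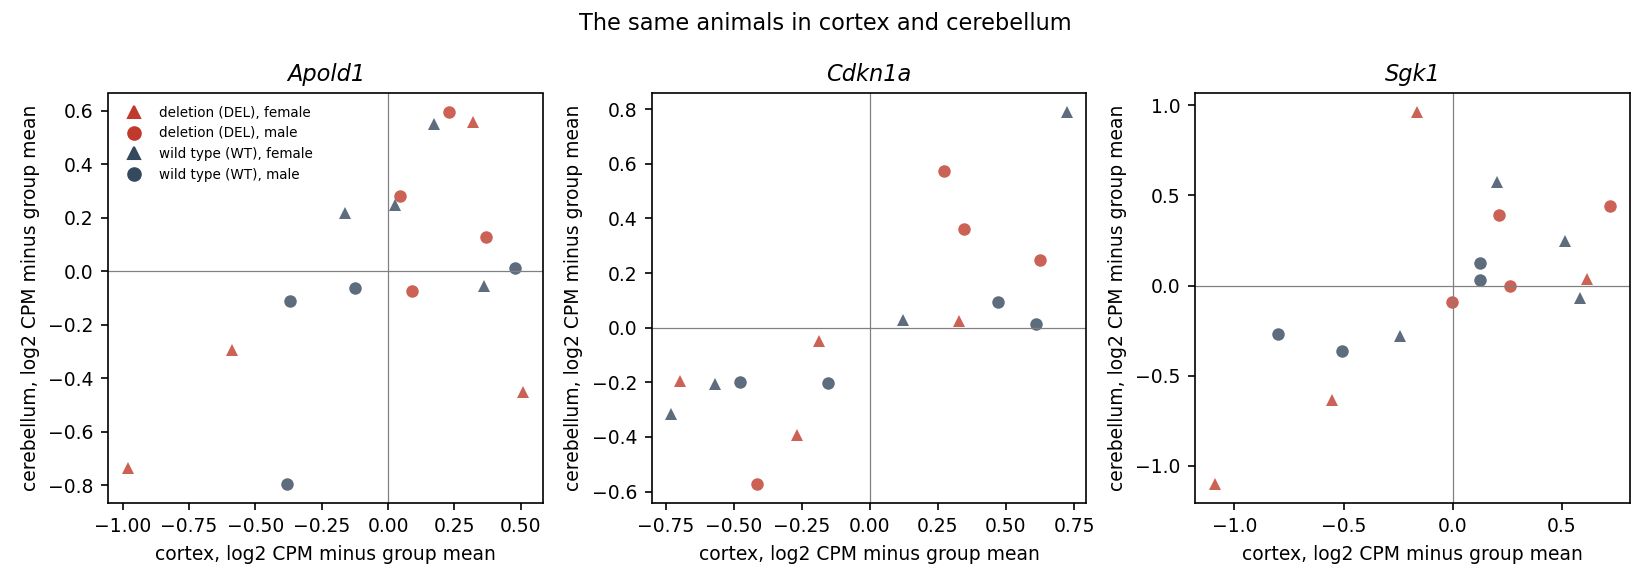
Log2 CPM minus the group mean in cerebellum (y axes) against the same animal's value in cortex (x axes) for Apold1, Cdkn1a and Sgk1, with deletion animals in red, wild-type animals in dark blue, triangles for females and circles for males (16 animals each). The points of Cdkn1a follow a rising line (r = 0.77), those of Sgk1 (r = 0.65) and Apold1 (r = 0.55) less closely.

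The genes whose pattern over the 48 libraries was most like that of Apold1 were ranked by correlation after subtraction of genotype, sex and region means, over 13950 genes of at least 1 CPM in every region. Among the first 8 were Otud1 (r = 0.74), Grk5 (0.73), Tyro3 (0.71), C130074G19Rik (0.69), Ptgfrn (0.68), Midn (0.68) and Ano1 (0.67). The values were highest in striatum, where r over 16 libraries was 0.82 to 0.91 for these genes, against -0.14 to 0.52 in cerebellum. The striatal libraries were mixed in their region markers, whose part in this ranking was not tested. Where sex means were not subtracted, Midn, Tyro3 and C130074G19Rik ranked 1, 2 and 9. Grk5, Otud1, Ano1 and Ptgfrn then ranked 12, 35, 66 and 95. Among the set, Dusp1 came nearest, at rank 21 with r = 0.63, and kept 0.78 in cortex, 0.59 in striatum and 0.65 in cerebellum. Klf4 ranked 232, Btg2 293, Klf6 322 and Cdkn1a 3889, Sgk1 ranked 5796 with r = 0.13, and Klf2 and Ier3 had r of 0.06 and -0.04. Within the set the closest pair was Dusp1 and Btg2, with r = 0.91 over the 16 cortices and 0.79 over all 48 libraries.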

How the data were processed

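The authors prepared libraries with a stranded mRNA kit (TruSeq) and sequenced them on a HiSeq instrument, per the labels' protocols. The submitters' processing notes name FastQC 0.10.1, STAR 2.4.2a, Picard and SAMtools, and the builds GRCm38 and mm8 without their roles; how reads were counted is not given in the sources used here. In the deposited table the values are whole-number read counts per gene, not normalized by the authors; 92 spike-in rows were left out. Gene symbols came from GENCODE and RefSeq annotation (46488 of 47069 identifiers).

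The 9 genes and all lists were chosen with earlier results of these data known. Genes named from the lists were those called (up to 3 by smallest p) or otherwise the 2 of smallest p. Of the 8 genes most like Apold1, 1 is not reported here. Each region was fitted with edgeR 4.0.16 (R 4.3.3; TMM scaling, filterByExpr, robust quasi-likelihood, sex and genotype), with Benjamini-Hochberg adjustment over all genes; the SE is the size of the log2 fold change divided by the square root of F. The striatum and cortex of wild types, and the other region pairs, were compared in a fit of the wild-type libraries. DESeq2 1.42.0 was an alternative, as were other scaling, no low-count filter, no sex term, a joint fit, single sexes, marker covariates and leaving out each library. Covariates of region markers were added after the data were seen. The code was tested on simulated data. Correlations used 100000 permutations of animals within genotype (NumPy 2.4.6). A prior count of 2 was used for log2 CPM.

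The animal numbers pair libraries across regions. Deviations were taken from the mean of each group and sex, over 15089 genes. Their median correlation was 0.41, 0.47 and 0.32 in the same animal. It was -0.16, -0.12 and -0.13 in different animals of the same genotype and sex. Because means of 4 animals were subtracted, negative values between different animals follow from positive ones in the same animal. The negative values are thus no separate evidence of pairing. The labels do not say whether animals shared litters. Counts of Apold1 ran from 37 to 671 per library, which limits its precision.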

Additional observations from a re-analysis of the deposited data

Results flagged for a closer look

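In all, 5 values stood far from the other 7 libraries of their group, among 54 groups examined; chance flags about 1 in 20 groups. Klf4 was 10.7 CPM in the deletion cerebellum of animal D802, against 4.08 to 6.71 CPM in the others of its group, and 9.67 CPM in the deletion striatum of animal D801, against 2.71 to 5.73 CPM. Btg2 was lowest in the deletion cerebellum of animal D809, at 8.20 CPM against 15.3 to 21.6 CPM; this is the library with few cerebellar markers. Among wild-type cerebella, Klf6 was 34.2 CPM in animal W805, against 16.6 to 24.2 CPM, and Cdkn1a was 51.2 CPM in animal W814, against 23.8 to 31.6 CPM.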

How the results depend on the processing

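The count of the 9 genes called in cortex was 0 by edgeR and 1 (Apold1) by DESeq2, and 0 to 1 when each library was left out. It was 0 in every such fit in striatum and 1 in every such fit in cerebellum, where it was 0 in males only and 0 in females only, against 1 in both sexes together, with 4 animals per group. The cerebellar count is Apold1 in the contrast that chose it, so its behaviour across fits shows nothing about stability. For female over male in striatum DESeq2 called 2 genes, Klf2 and Klf4, against 0 by edgeR. For wild-type striatum over cortex 4 genes were called, 7 with the animal number as a replicate block and 1 with deletion libraries in place of wild type. In the comparison of cerebellum with striatum, the block added Sgk1 (log2 fold change 0.42, edgeR adjusted p = 0.018); among deletion libraries Btg2 reversed, to -0.084. The block changed no other call. The 8 genes most like Apold1 shared 2 members with those found when sex means were not subtracted. Of the correlations across regions, 11 of 27 passed in place of 10 once sex means were also subtracted, though the permutations still crossed the sexes. For these results the cause was not tested. Scaling by relative log expression changed no call of a member. With no filter on low counts Klf4 was no longer called between wild-type striatum and cortex (log2 fold change -0.42). Apold1 had 37 to 671 counts per library, and counting error bears on it more than on Sgk1.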
